A study of Homo sapiens with 9 samples.

Results

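The response of 10 genes used as markers of neuroendocrine cells was followed in LNCaP prostate cancer cells: ENO2, CHGA, CHGB, SYP, NTS, SCG2, SCG5, TUBB3, INSM1 and DDC. They were chosen as a list of gene symbols, and all probe sets that the array annotation assigns to 1 of these genes alone were taken. This gave 12 probe sets for the 10 genes, of 22215 probe sets and 12165 genes on the array, with 2 probe sets each for DDC and TUBB3 and 1 for every other gene. LNCaP is an established human line with the features of luminal prostate epithelium, whose secretory programme depends on androgen. All 9 cultures were held for 2 days in medium with charcoal-stripped serum, which is depleted of steroids. The cells then received 1 nM R1881, a synthetic androgen, with 1.25 µM celastrol, or 1 nM R1881 with DMSO, or the vehicles ethanol and DMSO alone, in 3 cultures each. Celastrol is a plant triterpenoid, and no culture with celastrol and without androgen was analysed here. The labels give 24 h of treatment, except that the titles of the 3 androgen arrays give 6 h where their descriptions give 24 h, and this conflict touches both comparisons that use those arrays. Nothing in the labels says how the replicate cultures were separated, so p-values measure the spread between these samples.

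Neuroendocrine cells of the prostate store peptides and amines in dense-core granules, and granins such as chromogranin A package the cargo of those granules. Prostate cancer cells can take on neuroendocrine traits when androgen signalling is withdrawn, and LNCaP cells in steroid-depleted medium are a common model of that shift. The regulator INSM1 acts in the nucleus, DDC and ENO2 are enzymes, NTS encodes a secreted peptide, the granins and SYP are granule and vesicle proteins, and TUBB3 is a tubulin of neurons.

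Values are RMA intensities on the log2 scale. Since such values carry no detection call, a gene was placed near background when its brightest probe set averaged at or below 5.74 in each of the 3 groups. That ceiling is the 95th percentile of 60 probe sets of 51 genes typical of lens, retina, pituitary, pancreas, muscle, placenta, blood cells, smell and taste. The 9 arrays had median intensities of 72.2 to 80.2. One of them, vehicle array 3, differed from the rest: its deviations from the group mean had a standard deviation of 0.31 against 0.12 to 0.21 on the other arrays, and 33.8% of the 9339 dim probe sets were highest on it. The 6 measured markers of luminal prostate cells had a lowest log2 level of 10.16 over the 9 arrays. Of 13 measured markers of stroma, blood, endothelium and basal epithelium, 8 were near background, PTPRC, PECAM1 and KRT5 among them. Their summed log2 level ran from 69.8 to 70.5 with androgen plus celastrol, 69.8 to 72.8 with androgen and 72.9 to 77.1 with vehicle. Among them VWF (-1.13 ± 0.14) and COL3A1 (-0.43 ± 0.10) were lower with androgen than with vehicle (limma, adjusted p = 0.000860 and 0.0224). The COL3A1 call was lost in 6 of 13 other settings, with the highest adjusted p at 0.121. With androgen plus celastrol against vehicle, VWF, COL3A1 and VIM (-1.33 ± 0.28, adjusted p = 0.00979) were lower, of which COL3A1 (adjusted p = 0.0377) passed in only 3 of the 13 other settings. The part of these markers in the results on the 10 genes was not tested.

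The 10 genes spanned a wide range of levels. DDC and TUBB3 were bright, ENO2 was of middle brightness, NTS and CHGA straddled the background ceiling, and CHGB, SYP, SCG2, SCG5 and INSM1 were near background. By the mean over the 9 arrays, the probe sets 205311_at of DDC and 213476_x_at of TUBB3 stood at percentiles 96.6 and 93.2 of all probe sets and ENO2 at percentile 63.4. NTS stood at percentile 42.1 and CHGA at 39.5, while the 5 genes near background lay between percentiles 3.51 and 20.0. The same 5 genes were below a stricter ceiling of 5.32, and 7 genes, with NTS and CHGA added, were below the median of all probe sets at 6.23.

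**Figure D1:**
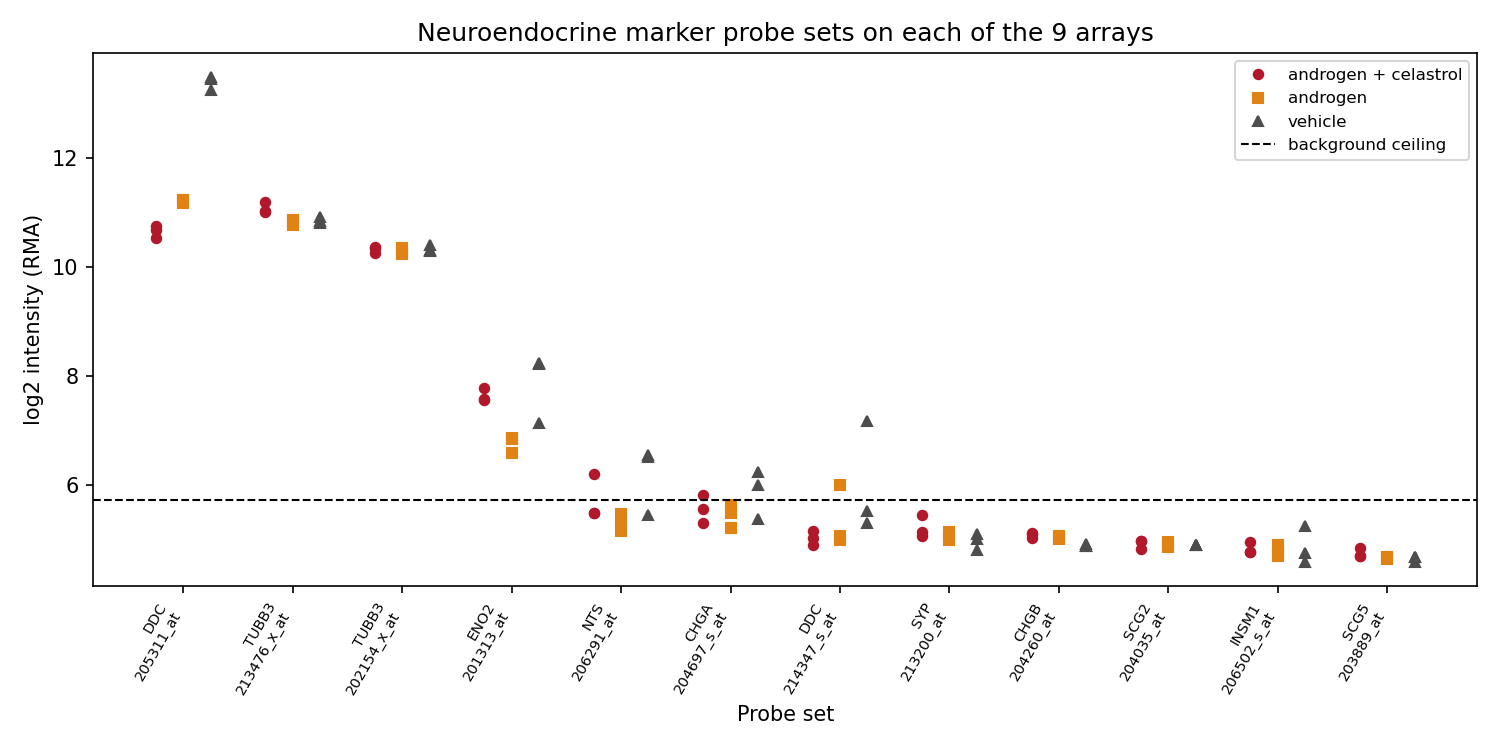
Log2 intensity of the 12 probe sets (horizontal axis, by falling mean) on each of the 9 arrays, with circles for androgen plus celastrol, squares for androgen, triangles for vehicle and a dashed line at the background ceiling of 5.74. DDC 205311_at separates the 3 groups, ENO2 lies between 6.59 and 8.25, and the 5 probe sets at the right lie under the line on every array.

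Androgen lowered 2 of the 10 genes, DDC and ENO2, and raised none past the threshold of 0.05 (limma, Benjamini-Hochberg over all 22215 probe sets), while 3 passed an unadjusted p of 0.05. Among the brightest probe sets of all 12165 genes, 5.35% were lower and 6.71% higher with androgen. Adding celastrol to androgen lowered 1 gene, DDC, against 6.6% of all genes lower and 8.13% higher, and raised none past the threshold, again with 3 at an unadjusted p of 0.05. Androgen plus celastrol against vehicle also lowered 1 gene, DDC, against 9.3% of all genes lower and 12.6% higher, and raised none, with 3 at an unadjusted p of 0.05. Non-overlapping groups were seen for 3 of the 10 genes between androgen and vehicle, for 5 between androgen plus celastrol and androgen, and for 4 between androgen plus celastrol and vehicle. The shares of all genes without overlap were 28.3%, 35.9% and 37.2%. The median log2 difference of the 10 genes was 0.10 for celastrol added to androgen, -0.06 for androgen against vehicle and -0.0031 for both agents against vehicle, with medians over all genes of 0.02, -0.04 and -0.01. Since 1 gene already makes 10% of the list, these counts are not read as a property of it, and the genes are described singly.

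DDC encodes aromatic L-amino acid decarboxylase, which makes dopamine and serotonin from their amino acid precursors, and it is also known as a partner of the androgen receptor. Its bright probe set 205311_at read 10.69, 10.54 and 10.77 with androgen plus celastrol, 11.24, 11.24 and 11.19 with androgen, and 13.45, 13.25 and 13.49 with vehicle. No 2 groups overlapped, and the steroid-starved cells were highest. On the linear scale these were mean intensities of 1628 ± 128, 2390.3 ± 51.5 and 10796 ± 931 (SD, n = 3). DDC fell by 2.17 ± 0.10 (SE) on the log2 scale with androgen against vehicle, or 4.51-fold (adjusted p = 2.51e-06). This was rank 17 among the falls of all 12165 genes in that comparison. With celastrol added to androgen it fell by a further 0.56 ± 0.10, or 1.47-fold (95% interval -0.77 to -0.34, adjusted p = 0.00554), at rank 582 among the falls. Androgen plus celastrol against vehicle gave -2.73 ± 0.10, or 6.63-fold lower, with adjusted p = 9.29e-07 and rank 6. Any 2 of these 3 comparisons share the arrays of 1 group, so that none of them is independent of the others. Leaving out any 1 array kept all 3 calls, with differences of -2.24 to -2.13 for androgen, -0.61 to -0.49 for celastrol added and -2.80 to -2.67 for both.

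The second probe set of DDC, 214347_s_at, was on average 6.29 log2 units dimmer. It read 5.17, 4.91 and 5.03 with androgen plus celastrol, 5.0, 5.08 and 6.01 with androgen, and 5.30, 5.53 and 7.18 with vehicle. Only androgen array 3 and vehicle array 3 lay above the background ceiling. None of its comparisons passed, with androgen at -0.64 ± 0.46 (95% interval -1.69 to 0.41) celastrol added at -0.33 ± 0.46 and both agents against vehicle at -0.97 ± 0.46 (adjusted p = 0.537, 0.756 and 0.196). When the probe sets of each gene were averaged, the celastrol call of DDC was lost (-0.44, adjusted p = 0.320), and the differences from vehicle were -1.41 with androgen and -1.85 with both agents, still past the threshold.

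RefSeq lists 2 start sites for DDC on the minus strand of chromosome 7, and promoter windows of 250 bases before to 50 after a start site were found for 7 of the 10 genes (RefSeq, GRCh38.p14). The windows of the genes that fell, DDC and ENO2, and of CHGA, which alone held a motif searched for, are shown 5′ to 3′ with matches in capitals.
DDC, chr7:50561022-50561321, minus strand: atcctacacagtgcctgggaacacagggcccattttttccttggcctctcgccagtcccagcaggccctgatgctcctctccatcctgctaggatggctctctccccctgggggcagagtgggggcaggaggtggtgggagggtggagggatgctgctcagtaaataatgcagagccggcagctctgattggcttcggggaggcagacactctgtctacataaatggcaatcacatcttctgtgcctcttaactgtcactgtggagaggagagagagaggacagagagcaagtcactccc
DDC, chr7:50565356-50565655, minus strand: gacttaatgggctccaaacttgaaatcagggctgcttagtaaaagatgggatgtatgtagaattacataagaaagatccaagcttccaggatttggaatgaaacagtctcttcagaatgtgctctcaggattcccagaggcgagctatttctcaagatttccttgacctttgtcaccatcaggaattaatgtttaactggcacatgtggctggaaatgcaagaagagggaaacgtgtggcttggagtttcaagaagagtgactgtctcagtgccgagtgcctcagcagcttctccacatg
ENO2, chr12:6914330-6914629, plus strand: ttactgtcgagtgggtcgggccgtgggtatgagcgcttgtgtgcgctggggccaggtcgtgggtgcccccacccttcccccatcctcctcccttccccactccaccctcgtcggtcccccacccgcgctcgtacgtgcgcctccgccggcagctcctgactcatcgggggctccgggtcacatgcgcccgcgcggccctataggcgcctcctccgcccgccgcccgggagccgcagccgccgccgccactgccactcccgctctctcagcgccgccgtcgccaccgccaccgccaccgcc
CHGA, chr14:92922900-92923199, plus strand: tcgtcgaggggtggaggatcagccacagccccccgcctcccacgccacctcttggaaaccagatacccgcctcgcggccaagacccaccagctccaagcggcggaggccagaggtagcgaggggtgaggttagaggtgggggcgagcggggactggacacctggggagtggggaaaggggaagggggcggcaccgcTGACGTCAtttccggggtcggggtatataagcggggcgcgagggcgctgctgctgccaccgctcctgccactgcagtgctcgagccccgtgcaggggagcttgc
The motifs were the androgen receptor half-site AGAACA, the cyclic AMP response element TGACGTNA and the heat shock element core GAANNTTC, each on both strands and with overlaps allowed. Of 35116 windows in the table, 14.8% held the first, 3.01% the second and 6.77% the third. Of the 9 windows of the members, the CHGA window held 1 match to TGACGTNA, at position -54 from the start site, and no other match was found. The window of ENO2 held 75% G and C bases, against 57.3% and 44.3% in those of DDC. A match or its absence in such a window is a description of these letters only.

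ENO2 encodes neuron-specific enolase, a glycolytic enzyme isoform of neurons and neuroendocrine cells. It read 7.79, 7.58 and 7.56 with androgen plus celastrol, 6.87, 6.86 and 6.59 with androgen, and 8.24, 8.25 and 7.15 with vehicle. The androgen arrays were lower than all others, and vehicle array 3 lay more than 1 log2 unit under the other vehicle arrays. Mean intensities were 200.4 ± 17.9, 109.9 ± 11.7 and 249.0 ± 92.9 (SD, n = 3). ENO2 fell by 1.10 ± 0.27 on the log2 scale with androgen against vehicle (95% interval -1.71 to -0.50, adjusted p = 0.0302), at rank 112 of the falls. This call was sensitive to single arrays. It was lost without androgen array 1, 2 or 3, without vehicle array 1 or 2, without androgen plus celastrol array 2 or 3, and in a fit of the 2 groups alone (adjusted p = 0.0538 to 0.109). Without vehicle array 3 the difference was -1.47 with adjusted p = 9.03e-05.

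With celastrol added to androgen, ENO2 was 0.87 ± 0.27 above androgen alone (95% interval 0.26 to 1.48), without overlap of the arrays, and did not pass (adjusted p = 0.0705). It passed with the replicate number as a block (adjusted p = 0.0402), with dim probe sets left out (0.0387), with quantile (0.0374) or cyclic loess normalization (0.0254), with an intensity trend (0.0452), in a fit of the 2 groups alone (0.00301) and without vehicle array 3 (0.000809). Androgen plus celastrol against vehicle was -0.23 ± 0.27 (95% interval -0.84 to 0.37, adjusted p = 0.591), and without vehicle array 3 it was -0.60 with adjusted p = 0.00724. DDC and ENO2, the genes that androgen lowered, thus had differences of opposite sign when celastrol was added, -0.56 and 0.87. These 2 comparisons share the androgen arrays. The ubiquitous enolase ENO1 differed by 0.26 ± 0.09 with celastrol added (adjusted p = 0.0915), by 0.10 ± 0.09 with androgen (0.633) and by 0.36 ± 0.09 with both (0.0186). It lost the last call without androgen plus celastrol array 3 (0.0684), without androgen plus celastrol array 2 and with quantile normalization.

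**Figure D2:**
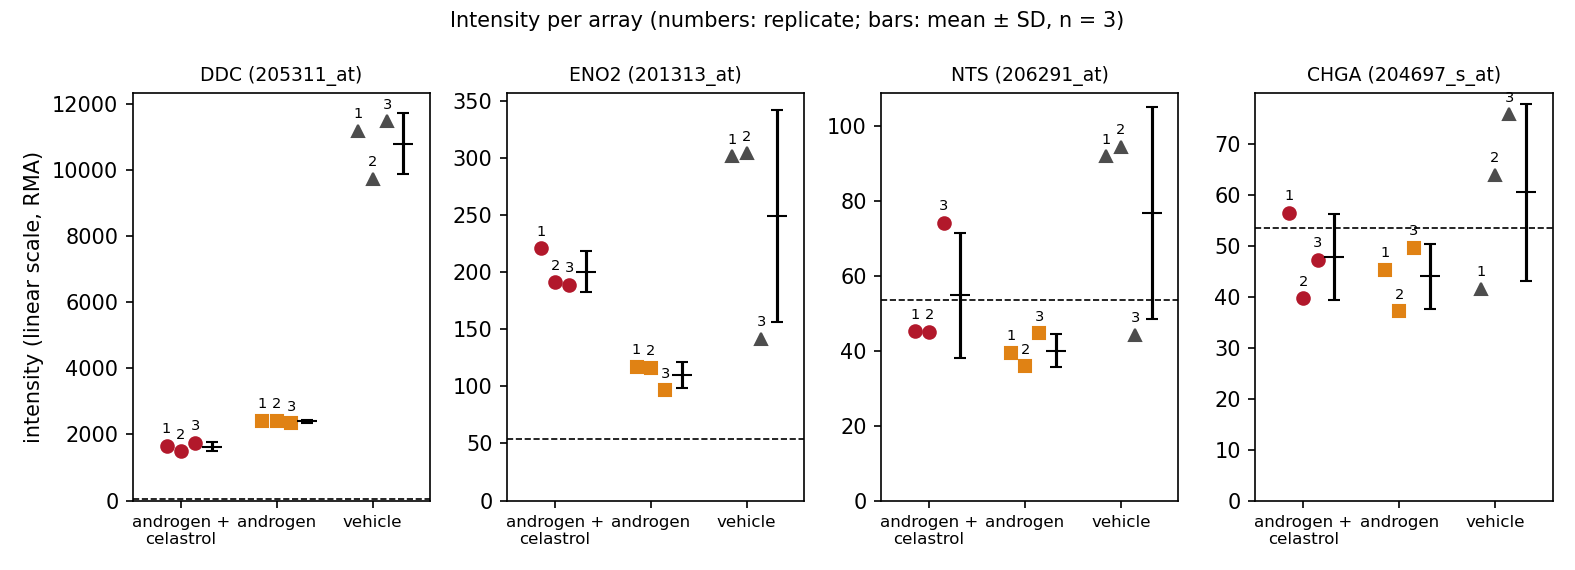
Linear RMA intensity of DDC, ENO2, NTS and CHGA on each array (points numbered by replicate), with the mean and SD of 3 arrays beside each group and the background ceiling as a dashed line. DDC is highest in the 3 vehicle arrays, and vehicle array 3 lies below the other vehicle arrays for ENO2 and NTS but not for CHGA.

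NTS encodes neurotensin, a peptide of gut and nerve cells that stimulates growth through its receptors. It read 5.50, 5.49 and 6.21 with androgen plus celastrol, 5.30, 5.16 and 5.48 with androgen, and 6.52, 6.56 and 5.47 with vehicle. Vehicle arrays 1 and 2 and androgen plus celastrol array 3 lay above the background ceiling, and the other 6 arrays lay below it. Androgen against vehicle gave -0.87 ± 0.30 (95% interval -1.56 to -0.18), which did not pass (adjusted p = 0.129). Without vehicle array 3 the differences were -1.23 for androgen (adjusted p = 0.00643) and -0.81 for androgen plus celastrol (0.0295) against vehicle, and both passed. Celastrol added to androgen gave 0.42 ± 0.30 (95% interval -0.27 to 1.11, adjusted p = 0.495), and 0.18 without androgen plus celastrol array 3. Androgen plus celastrol against vehicle was -0.45 with all arrays and -0.26 without vehicle array 2. The neurotensin receptors NTSR1 and NTSR2 had levels of 4.88 to 6.15 and 4.94 to 5.39 over the 9 arrays.

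Chromogranin A, the classical serum marker of neuroendocrine tumours, is encoded by CHGA. It read 5.82, 5.31 and 5.56 with androgen plus celastrol, 5.50, 5.22 and 5.63 with androgen, and 5.38, 6.00 and 6.25 with vehicle. Vehicle arrays 2 and 3 were the highest, and the groups overlapped in every comparison. Androgen against vehicle gave -0.42 ± 0.23 (95% interval -0.94 to 0.09, adjusted p = 0.363), celastrol added 0.11 ± 0.23 (-0.40 to 0.63, adjusted p = 0.834) and both against vehicle -0.31 ± 0.23 (-0.82 to 0.20, adjusted p = 0.393). Single arrays moved these values. The androgen difference was -0.67 without vehicle array 1 and -0.24 without vehicle array 3, and that of both agents was -0.56 and -0.12 without the same arrays. The celastrol difference ran from -0.013 without androgen plus celastrol array 1 to 0.24 without androgen plus celastrol array 2, so that its sign was not fixed.

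The other granins stayed at background level. CHGB, or chromogranin B, read between 4.88 and 5.12, SCG2, or secretogranin II, between 4.83 and 4.99, and SCG5, which encodes the granule chaperone 7B2, between 4.60 and 4.84 over all 9 arrays. All of these values lay under the 5.74 ceiling, so their differences are differences between background readings. CHGB read 5.11, 5.12 and 5.03 with androgen plus celastrol, 5.06, 5.02 and 5.03 with androgen, and 4.93, 4.88 and 4.89 with vehicle, so that the vehicle arrays were lowest without overlap, by 0.19 ± 0.07 (adjusted p = 0.110) and 0.14 ± 0.07 (adjusted p = 0.352). The largest difference of SCG2 was 0.03 ± 0.08 and that of SCG5 was 0.09 ± 0.08, both for androgen plus celastrol against vehicle, with adjusted p = 0.848 and 0.451.

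SYP encodes synaptophysin, a membrane protein of small vesicles. It read 5.46, 5.14 and 5.07 with androgen plus celastrol, 5.07, 5.14 and 5.0 with androgen, and 5.12, 5.02 and 4.81 with vehicle, with overlap between all groups. Its largest difference was 0.24 ± 0.12 for androgen plus celastrol against vehicle (95% interval -0.04 to 0.53, adjusted p = 0.230). INSM1, a zinc finger repressor that drives neuroendocrine differentiation, read between 4.60 and 5.26, with the highest value on vehicle array 3. Its differences lay between -0.08 ± 0.16 and 0.05 ± 0.16. The related vesicle gene SYPL1, which many tissues express, was bright at 10.9 to 11.2 and had adjusted p = 0.0752 or more in every comparison.

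TUBB3, the class III beta-tubulin of neurons, was bright in all groups. Probe set 213476_x_at read 11.01, 11.03 and 11.20 with androgen plus celastrol, 10.87, 10.85 and 10.78 with androgen, and 10.92, 10.84 and 10.82 with vehicle. The androgen plus celastrol arrays were highest without overlap, by 0.25 ± 0.08 over androgen (95% interval 0.06 to 0.44, adjusted p = 0.0974) and 0.22 ± 0.08 over vehicle (0.03 to 0.41, adjusted p = 0.110). The first passed with an intensity trend (0.0216) or dim probe sets left out (0.0377), and the second with these (0.0303 and 0.0467) or with array medians subtracted (0.0419). Probe set 202154_x_at read 10.25 to 10.41 over all arrays, with 0.02 ± 0.08 for celastrol added and -0.04 ± 0.08 for androgen (adjusted p = 0.926 and 0.867). For androgen plus celastrol against vehicle it was at -0.02 ± 0.08 (limma, adjusted p = 0.904), so it did not show the rise of 213476_x_at. The ending _x_at marks probe sets whose probes can match other transcripts. Other beta-tubulin genes were bright too, with TUBB at 13.2 to 13.6 on probe set 211714_x_at, so the share of the TUBB3 signal that is TUBB3 is uncertain. Androgen left both TUBB3 probe sets within 0.04 log2 units of vehicle.

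**Figure D3:**
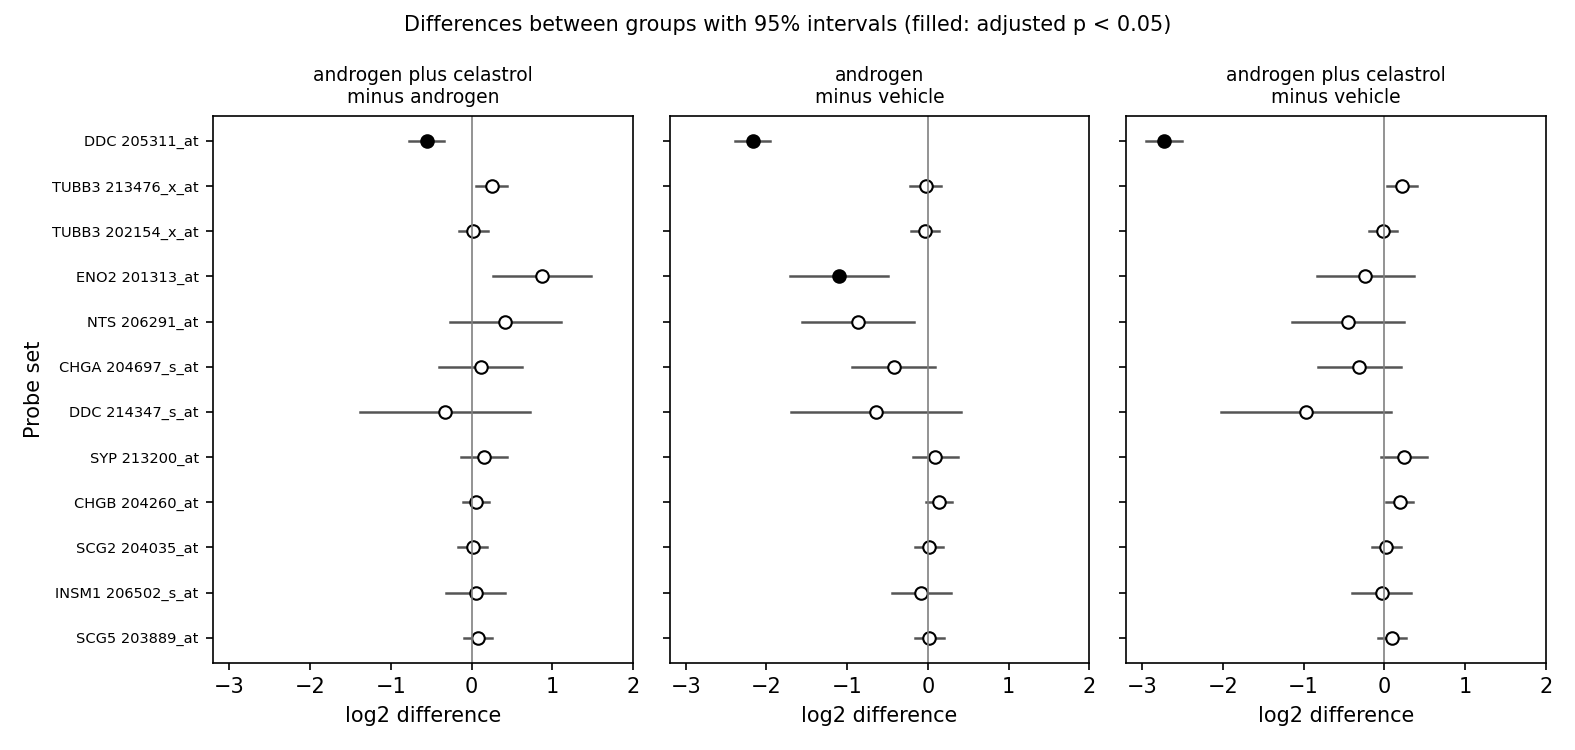
Log2 differences of the 12 probe sets with their 95% intervals for celastrol added to androgen, androgen against vehicle, and androgen plus celastrol against vehicle; filled points passed an adjusted p of 0.05. DDC 205311_at passed in all 3 panels and ENO2 in the middle one, and most other intervals include 0.

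The pattern of DDC over the 9 arrays was set beside all other genes as a description. CTSH, CAMK2N1, PEG3, COLEC12 and DPYSL2 had the highest Pearson correlations with it, between 0.991 and 0.995, over 9 arrays that share 3 treatment groups. PEG3 averaged 10.15, 10.76 and 12.25, and COLEC12 7.15, 8.10 and 10.45, with androgen plus celastrol, androgen and vehicle. For ENO2, chosen for this after its values were seen, the closest were MTREX, PDCD2, MANBA, ID3 and the pseudogene PMS2P3, at 0.954 to 0.977. ID3, an inhibitor of basic helix-loop-helix factors, averaged 9.93, 9.44 and 9.99 in those groups.

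Wider lists of the neuroendocrine programme were read on the brightest probe set of each gene. Of 17 measured genes of dense-core granules and their release, 4 rose and none fell with androgen (limma, with 6 at an unadjusted p of 0.05), with a median difference of 0.02, and 5 were near background. Over all genes, 6.71% were higher and 5.35% lower with androgen. RAB27A, a GTPase that docks secretory vesicles, read 8.70, 8.71 and 8.75 with androgen plus celastrol, 9.68, 9.76 and 9.71 with androgen, and 7.38, 7.12 and 7.22 with vehicle. It was 2.48 ± 0.09 higher with androgen than with vehicle (adjusted p = 9.63e-07) and 1.00 ± 0.09 below androgen alone when celastrol was added (adjusted p = 0.000175). CADPS2, which primes granules for release, averaged 8.65 with androgen plus celastrol, 9.37 with androgen and 6.02 with vehicle, a rise of 3.35 ± 0.15 with androgen (adjusted p = 2.37e-06). RAB3B rose by 1.80 ± 0.13 and PTPRN2, a granule membrane protein, by 0.88 ± 0.16 (adjusted p = 3.58e-05 and 0.00673). RAB3D (1.01 ± 0.34, adjusted p = 0.109) and PCLO (0.56 ± 0.21, adjusted p = 0.148) did not pass. PCLO passed with the replicate block (adjusted p = 0.0399) and with cyclic loess normalization (0.0488), which makes 5 genes that rose. Without androgen plus celastrol array 1, RAB3D passed (adjusted p = 0.0294), so that 5 of these genes rose, and RAB3A fell by 0.41 (adjusted p = 0.0124). RAB27A, RAB3B and RAB3D act in vesicle transport in exocrine cells too.

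With celastrol added to androgen, 4 of these 17 genes fell and 1 rose, against 6.6% of all genes lower and 8.13% higher, with a median of 0.01. RAB27A, CADPS2 (-0.72 ± 0.15), RAB3B (-0.60 ± 0.13) and CPE, the carboxypeptidase that trims peptide hormones (-0.45 ± 0.09), fell, and PCLO rose by 1.30 ± 0.21 (adjusted p = 0.00358). The number that fell was 1 without androgen array 1, with CADPS2 at adjusted p = 0.0533 and CPE at 0.0566, and the RAB3B call was lost without androgen array 2 (adjusted p = 0.0716). That number was 3 without androgen plus celastrol array 2 or androgen array 2 or 3. It was 5 with array medians subtracted, quantile or cyclic loess normalization, or without androgen plus celastrol array 1. RAB3A, at adjusted p = 0.0870 in the main limma fit, passed in 4 of 13 other settings. Against vehicle, androgen plus celastrol raised 4 and lowered 2, against 12.6% of all genes higher and 9.3% lower. PCLO was at 1.86 ± 0.21 and RAB3A at -1.02 ± 0.20 (adjusted p = 0.000288 and 0.00632).

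Of 24 measured synaptic and neuronal genes, 14 were near background, among them SNAP25, STMN2, SYN1 and SYT1. Androgen lowered 1, the light neurofilament NEFL, and raised none (5 at an unadjusted p of 0.05, median -0.09). With 5.35% of all genes lower and 6.71% higher, a count of 1 in 24 is near the share of all genes, and NEFL is described as a single gene. NEFL read 5.80, 5.78 and 6.00 with androgen plus celastrol, 6.54, 6.97 and 6.54 with androgen, and 7.92, 7.80 and 7.72 with vehicle, without overlap between any 2 groups. It fell by 1.13 ± 0.13 with androgen (adjusted p = 0.000614) and by a further 0.83 ± 0.13 with celastrol added (adjusted p = 0.00390). The number lowered by androgen was 2 without androgen plus celastrol array 1 or 2 or vehicle array 3. The number raised was 1 without androgen plus celastrol array 1 or androgen array 3, or with array medians subtracted, quantile or cyclic loess normalization. With celastrol added, 4 of the 24 genes rose and NEFL fell, with a median of 0.06, against 8.13% of all genes higher and 6.6% lower. The tubulin TUBB2A rose by 0.85 ± 0.09 (adjusted p = 0.000342), the vesicle fusion protein VAMP2 by 0.45 ± 0.10 and the microtubule protein MAP2 by 0.67 ± 0.17 (adjusted p = 0.0179 and 0.0344), and CELF3 by 0.43 ± 0.12 (adjusted p = 0.0411) at a level near background. The number that rose was 1 without androgen plus celastrol array 2 or 3 or androgen array 2 or 3, and 2 without vehicle array 1 or with the replicate block.

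**Figure D4:**
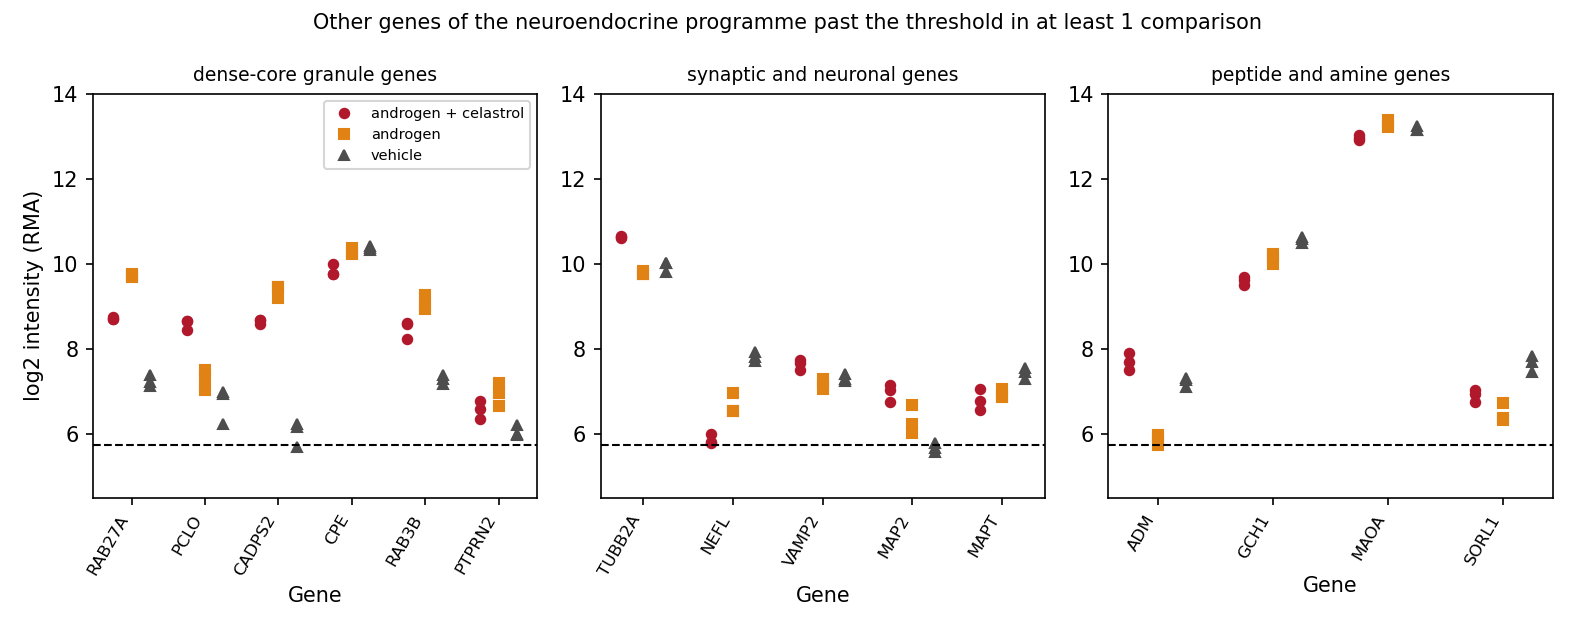
Log2 intensity per array of genes outside the 10 markers, up to 4 per list and comparison with the lowest adjusted p and without overlap of the arrays, in the lists of granule, synaptic and neuronal, and peptide and amine genes; the dashed line is the background ceiling. RAB27A, CADPS2 and RAB3B are highest with androgen, and NEFL and GCH1 are highest with vehicle.

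Of 18 measured genes of peptides, amines and their receptors, 12 were near background, among them TH, which starts dopamine synthesis, at 4.48 to 4.76. Androgen lowered 3 and raised none (3 at an unadjusted p of 0.05, median -0.09), against 5.35% of all genes lower and 6.71% higher. GCH1, which makes the cofactor of TH, averaged 9.60 with androgen plus celastrol, 10.12 with androgen and 10.56 with vehicle. It fell by 0.44 ± 0.10 with androgen (adjusted p = 0.0184) and by 0.52 ± 0.10 with celastrol added (adjusted p = 0.00783). The first call passed in 10 of 13 other settings, with the highest adjusted p without androgen array 2 (0.0812). The number of genes that androgen lowered was 2 without androgen array 1 or 2 or vehicle array 1. The vasodilator peptide gene ADM averaged 7.70, 5.87 and 7.23 in the same groups, a fall of 1.36 ± 0.12 with androgen and a rise of 1.83 ± 0.12 with celastrol added (adjusted p = 0.000121 and 4.93e-05). The neurotensin-binding receptor SORL1 fell by 1.19 ± 0.15 with androgen (adjusted p = 0.000800). With celastrol added, 1 gene rose and 2 fell, with a median of 0.06, which is near the shares of all genes at 8.13% higher and 6.6% lower. MAOA, which degrades amines and was bright at 12.9 to 13.4, fell by 0.31 ± 0.08 (adjusted p = 0.0384). The number that fell was 1 without any 1 array other than vehicle array 3 and with the replicate block, and the MAOA call had adjusted p = 0.145 without androgen array 3. The number that rose was 2 with the replicate block and without vehicle array 3.

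Regulators of neuronal fate were read in the same way. REST, the repressor of neuronal genes, averaged 8.31 ± 0.10 with androgen plus celastrol, 8.19 ± 0.09 with androgen and 8.04 ± 0.15 with vehicle (SD, n = 3), and passed in no comparison (adjusted p = 0.547 for celastrol added, 0.535 for androgen and 0.108 for both). FOXA1, a luminal pioneer factor, lay between 8.60 and 8.93 and did not pass either. Of 19 measured regulators, 2 rose and 2 fell with androgen, with a median of -0.08, near the shares of all genes at 6.71% higher and 5.35% lower. SOX9 rose by 2.13 ± 0.13 and ID2 by 0.91 ± 0.09 (adjusted p = 1.72e-05 and 0.000196), while SOX4 (-0.51 ± 0.09) and ID3 (-0.55 ± 0.10) fell (adjusted p = 0.00595 and 0.00921). With celastrol added to androgen, 2 rose and 5 fell, with a median of -0.13, against 8.13% of all genes higher and 6.6% lower. SOX4, which promotes neuronal gene expression, averaged 10.35 with androgen plus celastrol, 11.46 with androgen and 11.97 with vehicle, and fell by 1.11 ± 0.09 with celastrol added (adjusted p = 0.000116). SOX9 fell by 1.33 ± 0.13 and ID1 rose by 0.74 ± 0.13 (adjusted p = 0.000360 and 0.00655). RCOR1 (-0.60 ± 0.15) and HDAC2 (-0.50 ± 0.10), which work with REST, fell too, with adjusted p = 0.0311 and 0.0145. AURKA also fell, averaging 8.89 with androgen plus celastrol and 9.59 with androgen (limma, adjusted p = 0.0153). ID3 was the other gene that rose, averaging 9.93 and 9.44 in these groups (limma, adjusted p = 0.0151). The AURKA and ID3 calls each passed in 10 of 13 other settings. The number that fell was 2 without androgen array 1 or 2 or androgen plus celastrol array 2 and 3 without androgen array 3, and the highest adjusted p was 0.118 for RCOR1 and 0.0599 for HDAC2. The number that rose was 1 without androgen array 2 or 3 or androgen plus celastrol array 3.

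The hormone response of the same arrays gives the scale. KLK2, KLK3, FKBP5 and TMPRSS2, classical androgen-induced genes, differed by 4.98 ± 0.26, 2.15 ± 0.08, 4.49 ± 0.14 and 3.15 ± 0.15 between androgen and vehicle. Beside these, DDC differed by -2.17 and ENO2 by -1.10. With celastrol added to androgen, KLK2, KLK3 and FKBP5 fell by 1.51 ± 0.26, 0.85 ± 0.08 and 1.37 ± 0.14 (adjusted p = 0.00497, 0.000255 and 0.000338), and TMPRSS2 was at -0.16 ± 0.15 (adjusted p = 0.612). DDC was at -0.56 and ENO2 at 0.87 in that comparison, which shares the androgen arrays with the one before.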

How the data were processed

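RNA from the 9 LNCaP samples was isolated with Trizol, then labelled as biotinylated cRNA for Affymetrix arrays, per the labels' protocols. The deposited intensity values are linear, 1 per probe set and array. Per the submitters' processing notes, RMA was used to make them. Its version is not given in the sources used here. RMA brings arrays to a common scale, so that differences in total RNA are lost. The arrays were not fully equal, with an upper-quartile intensity of 332 on vehicle array 3 and 377 to 409 on the others. Log2 was taken with an offset of 0. The annotation table gives 1 gene for 19724 of 22215 probe sets, several for 568 and none for 1923, and 19707 symbols were updated through gene IDs. No array batch is given in the labels.

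All 9 arrays, in 3 groups of 3 from the labels, were fitted by lmFit and eBayes (limma version 3.58.1, R version 4.3.3, with 6 residual and 2.8 prior degrees of freedom), with Benjamini-Hochberg adjustment over all probe sets and a threshold of 0.05. The fit was tested on simulated data. For arrays, their number limits the precision, and the median SE was 0.13. In counts, the probe set with the highest mean stands for its gene. Members, lists and tests were chosen with earlier results of these data known. Named genes were all 10 members, fixed examples such as REST and KLK3, and the 5 genes most correlated with a member. From each list and comparison, up to 4 genes past the threshold without overlap of arrays and up to 2 that did not pass were named. Some genes in counts of 5 or fewer were named after their values were seen. These were RAB3A against vehicle, CELF3, PCLO, RCOR1 and AURKA, and ID3 with celastrol added. The receptors NTSR1 and NTSR2, TH, and genes near background were also named after their values were seen.

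Same-numbered androgen and vehicle arrays deviated together (correlations 0.39, 0.37 and 0.63). The labels state no pairing, so the main fit was unpaired and the replicate number entered only as a block in an alternative fit. For the other comparisons the correlations ran from -0.27 to 0.22. The replicate block, 3 normalizations, an offset of 16, a filter on dim probe sets, gene-level fits, an intensity trend, fits of 2 groups and leaving out each array were tried as alternatives; for the wider lists these were added after seeing the data.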

Additional observations from a re-analysis of the deposited data

How the results depend on the processing

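Over all probe sets, 2792 passed for celastrol added to androgen, 2333 for androgen and 4222 for androgen plus celastrol against vehicle. With the probe sets of a gene averaged, which tests fewer features, these counts were 1845, 1497 and 2725, no member was lower with celastrol added (0), and DDC was at -0.44. Leaving out 1 array gave 1750 to 3919, 1552 to 2631 and 3326 to 4365. The replicate block gave 2397, 2023 and 4074; besides ENO2 with celastrol added (0.87, now past the threshold), it changed no call of a member. Members higher with celastrol added numbered 2 with dim probe sets left out or an intensity trend and 1 with quantile normalization, cyclic loess, the 2 groups alone or the replicate block. ENO2 was then at 0.82 (quantile), 0.83 (cyclic loess) or 0.87 (the others). One member, TUBB3 on its probe set 213476_x_at, was higher than vehicle with both agents (1) with dim probe sets left out, an intensity trend or array medians subtracted. In the 2 groups alone, 1 member was lower with androgen, with ENO2 at -1.10. Without 1 array, members lower with androgen numbered 1 to 3, members higher with celastrol added 0 to 1 and members lower with both agents 1 to 3. ENO2 then ranged from 0.78 to 0.92 for celastrol added, -1.47 to -0.92 for androgen and -0.60 to -0.048 for both. DDC kept its direction in every setting and its call in every setting but the averaged probe sets with celastrol added, where it was also -1.41 for androgen and -1.85 for both. No cause of these shifts was tested. Signal over background limits CHGB, SYP, SCG2, SCG5 and INSM1, whose differences are between background readings.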
